A study of Mus musculus with 12 samples.

Results

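Solute carrier (Slc) genes encode membrane proteins that move amino acids, sugars, metals, ions, nucleotides and vitamins across the plasma membrane and across the membranes of organelles. The members here were the protein-coding genes of the mouse whose symbol begins with Slc and a number and whose expected counts summed to at least 120 over all 12 libraries. Of 377 such genes in the annotation, 200 met that limit and 177 did not, of which 59 were at 0 in every library. The summed count chose the members, so their being detected is not a result. Just inside the limit were Slc5a5 with 122 counts, Slc28a2 with 125 and Slc18a1 with 127, and just outside were Slc16a8 with 104, Slc49a3 with 94 and Slc30a3 with 83. All 200 members entered the tests, and 177 of them had at least 10 counts in every library.

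RNA was sequenced from W-20 cells (W-20-17), a mouse bone marrow stromal cell line, as poly-A libraries. WT cells, the unmodified line, and Y428F cells, a line named after a YAP substitution of a tyrosine by phenylalanine, each received vehicle (PBS) or 50 nM parathyroid hormone (PTH) for 2 h, with 3 libraries in each of the 4 groups. The Y428F line came from stable transfection with Flag-tagged YAP under a CMV promoter and puromycin selection of positive clones. By the study's text, the line compared with WT cells by RNA-Seq carried a second YAP substitution as well, of a serine by alanine at a site through which YAP is marked for degradation. The sample titles name Y428F alone and the genotype field of these libraries reads WT, so the line was taken from the title. No library of cells with introduced wild-type YAP, or with the serine substitution alone, was analysed here, so both substitutions, the introduced YAP and any other property of the selected cells cannot be told apart. Library totals ran from 17127897 to 19057319 counts.

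PTH acts on stromal and osteoblast-lineage cells through a G protein-coupled receptor that raises cAMP, and it regulates calcium and phosphate in the body. Within bone-forming cells, glucose enters through GLUT1 (Slc2a1), amino acids for collagen synthesis through carriers such as SNAT2 (Slc38a2), and phosphate for mineral through PiT-1 and PiT-2 (Slc20a1, Slc20a2). Zinc, needed by many enzymes and transcription factors, is brought into the cytosol by the Slc39 (ZIP) family and taken out of it by the Slc30 (ZnT) family.

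The labelled cell type was checked against marker genes. The collagen genes Col1a1 and Col1a2 held 1273611 and 2144272 counts over the 12 libraries, and Pdgfrb, Cxcl12 and Runx2 held 82392, 94440 and 17673. Thy1 was at 0, and the markers of mature osteoblasts Bglap, Sp7 and Alpl held 2, 16 and 33 counts, so these were stromal cells without the mature osteoblast genes. The summed level of the 11 stromal markers, led by Col1a2, was 19100 to 22900 CPM (a gene's counts per 1000000 counts of its library, scaled by the TMM method) in the 6 WT libraries and 10000 to 14500 in the 6 Y428F libraries. Lepr, a marker on the same list, held 106 counts in all and went the other way from this sum. Its mean was 0.143 CPM with vehicle and 0.118 with PTH in WT cells, and 1.03 and 0.63 in Y428F cells. The 6 genes of hematopoietic cells (led by Ptprc, with Cd3e at 0) summed to 0.615 to 1.92 CPM in WT and 3.03 to 4.3 in Y428F libraries, 4 of endothelial cells (led by Cdh5, with Pecam1 at 25 counts in all) to 0.91 to 1.77 and 6.12 to 9.94, and 4 of epithelial cells (led by Krt8, with Epcam at 0) to 0.246 to 0.967 and 2.89 to 4.79. The 4 adipocyte markers, led by Pparg with Adipoq at 0, summed to 55.3 to 64.3 CPM in WT cells with vehicle and 67.4 to 75.1 with PTH, and to 45.4 to 47.9 and 70.3 to 75.4 in Y428F cells. The 2 abundant ones did not move alike. Mean Pparg was 31.7 CPM with vehicle and 45.3 with PTH in WT cells, and 39.9 and 65 in Y428F cells. Mean Fabp4 was 26.9 and 25.2 CPM in WT cells, and 6.57 and 8.19 in Y428F cells. These marker differences moved with the cell line or with PTH, and their part in the results below was not tested. In bulk RNA, fewer cells of a type and less RNA per cell cannot be told apart.

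The family as a whole took 12482 ± 172.2 CPM (SD, n = 3) in WT cells with vehicle, 12966 ± 327.1 with PTH, 11994 ± 130.5 in Y428F cells with vehicle and 12547 ± 121.6 with PTH. Grouped by what they carry, 39 mitochondrial carriers gave 23.2% of the summed CPM, 25 amino acid carriers 22.7%, 24 metal carriers 17.6%, 25 carriers of nucleosides, bases and nucleotide sugars 11.2% and 26 carriers of inorganic ions and protons 8.07%. The 13 sugar carriers gave 3.64% and 4 phosphate and sulfate carriers 1.37%. Of the 200 genes, 35 had a mean of at least 100 CPM.

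Compared per kilobase of exon, the highest level was that of Slc25a4, the ADP/ATP exchanger of the inner mitochondrial membrane, at 223 CPM per kb. It was followed by Slc39a7 (ZIP7, which releases zinc from the endoplasmic reticulum) at 149, Slc25a5 (a second ADP/ATP exchanger) at 136 and Slc7a5 (LAT1, a carrier of large neutral amino acids) at 124. Slc48a1, a heme transporter, stood at 99.1 CPM per kb, and the mitochondrial phosphate carrier Slc25a3, the ATP-Mg/phosphate carrier Slc25a24 and Slc38a2 stood at 61.5, 60.1 and 59.4, close to each other. Slc3a2, the heavy chain that pairs with Slc7a5, and the creatine carrier Slc6a8 closed the list at 47.6 and 46.9. Some exons of Slc39a7 are shared with a noncoding gene on the same strand, and its counts were estimated rather than whole in 12 libraries, as were those of Slc25a3. Among genes described below, the same held for Slc25a37 in 12 libraries, Slc20a1 in 11, Slc5a3 in 8, Slc7a11 in 7, Slc16a3 in 6 and Slc30a1 in 3. Exons of Slc7a7, Slc16a3, Slc48a1 and Slc3a2 lie opposite those of Oxa1l, Csnk1d, Hdac7 and Snhg1, and those of Slc20a1 and Slc20a2 opposite Gm56350 and Smim19, so without strand their reads could not be told apart.

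**Figure D1:**
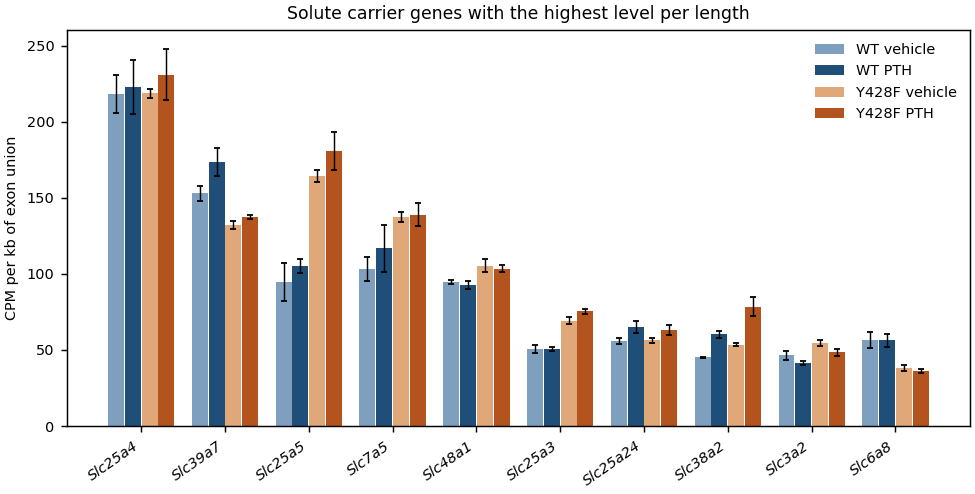
Mean level of the 10 solute carrier genes with the highest CPM per kb of exon (y axis) in the 4 groups; bars start at 0 and error lines are the SD of 3 libraries. Slc25a4 leads in every group, and Slc25a5, Slc25a3 and Slc7a5 are higher in Y428F than in WT cells with vehicle while Slc6a8 is lower.

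The response to PTH was tested for every gene at once with edgeR's quasi-likelihood test over all 12 libraries, and calls required both a Benjamini-Hochberg adjusted p below 0.01 and a log2 change larger than 0.3 in size. In WT cells, 9 of the 200 solute carrier genes rose and 5 fell, against 3.63% and 2.44% (6.07% in either direction) of the 17691 genes tested. Among 11577 protein-coding genes with at least 120 counts, the like-for-like background, 5.43% rose and 3.61% fell, so the share of the family that was called, 7.0%, lay near the background of 9.04%. In Y428F cells 11 rose and 7 fell (9.0%), beside 3.02% and 2.3% of all genes tested (5.32% in either direction) and 7.96% of the like-for-like genes. At an adjusted p under 0.05 with no limit on size, 33 of the 200 members passed in each line, beside 13.4% and 12.4% of all genes tested. Of the 11577 like-for-like genes, 2260 passed in WT and 2108 in Y428F cells. The median log2 fold change of the family was -0.025 in WT and -0.039 in Y428F cells, beside -0.019 and -0.007 over all genes tested. With library totals in place of TMM scaling the split moved to 8 higher and 8 lower in WT cells and to 9 and 10 in Y428F cells. Apart from a general remark on independent experiments in the study's statistics, the sources do not say that the 3 libraries of a group came from separate cultures, so the p-values measure the spread between these libraries, which may be technical.

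Among called genes, the largest fold change was that of a metal carrier. Slc30a1 (ZnT1, ENSMUSG00000037434, GRCm39 chr1:191638808-191645361, plus strand), the zinc exporter of the plasma membrane, was at 12.5, 13.8 and 11.4 CPM in the 3 WT libraries with vehicle and at 33.8, 33.7 and 29.3 with PTH. In Y428F cells it was at 8.87, 8.14 and 7.81 CPM with vehicle and at 21.4, 22.5 and 22.1 with PTH. Every PTH library lay above every vehicle library of either line, and the fold was alike in both, 2.57 in WT (log2 1.36, SE 0.09, adjusted p = 2.45e-09) and 2.65 in Y428F cells (log2 1.41, SE 0.10, adjusted p = 8.01e-09).

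Further zinc carriers rose in both lines by smaller amounts. Slc39a6 (ZIP6, an importer at the plasma membrane) was at 202, 201 and 196 CPM in WT vehicle libraries and 265, 269 and 259 with PTH, and at 162, 154 and 157 and then 227, 218 and 218 in Y428F cells. Its groups did not overlap, with log2 fold changes of 0.41 (SE 0.05, adjusted p = 1.02e-05) and 0.49 (SE 0.05, adjusted p = 1.49e-06). Its exons lie opposite those of Elp2, and whether counting used strand is not given in the sources used here. Slc30a4 (ZnT4, which loads zinc into vesicles) was at 182, 170 and 185 CPM in WT vehicle libraries and 213, 227 and 223 with PTH, and in Y428F cells at 156, 160 and 151 and then 227, 211 and 221. Its log2 fold changes were 0.31 (SE 0.05, adjusted p = 0.000579) and 0.50 (SE 0.05, adjusted p = 3.07e-06), and the difference of 0.19 between the lines had an adjusted p of 0.598.

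Slc41a2, a magnesium carrier, was at 13.9, 15.1 and 13.1 CPM in WT vehicle libraries and 20.6, 22.6 and 20 with PTH, a log2 fold change of 0.59 (SE 0.09, adjusted p = 0.000188). The Y428F libraries were at 8.98, 9.81 and 10.5 CPM and then 12.2, 11.5 and 11.6, with a log2 fold change of 0.27 that missed the threshold (adjusted p = 0.0921). The difference between the 2 responses, -0.32 (SE 0.14), had an adjusted p of 0.65, so the lines were not shown to differ. Of all 24 metal carriers, 4 rose in WT and 3 in Y428F cells and 0 fell in either. With library totals in place of TMM scaling 3 rose in WT cells, and in Y428F cells 3 rose and 1 fell. Under TMM scaling the rises were 16.7% and 12.5% of the class, beside 5.43% and 4.54% of the like-for-like genes. The class was not tested as such. Slc39a14 (ZIP14, an importer of zinc, iron and manganese) had log2 fold changes of 0.15 in WT (adjusted p = 0.143) and 0.26 in Y428F cells (adjusted p = 0.00755, with 0.204 and an adjusted p of 0.0598 without Y428F vehicle replicate 2). Slc40a1 (ferroportin, the iron exporter), Slc48a1 and Slc39a7 had log2 fold changes of 0.04, -0.03 and 0.18 in WT and 0.12, -0.03 and 0.06 in Y428F cells, with adjusted p-values of 0.896, 0.815 and 0.0278 and of 0.621, 0.828 and 0.59.

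Among amino acid carriers called genes rose and 0 fell, 2 of 25 in WT and 3 of 25 in Y428F cells (8.0% and 12.0%, beside 5.43% and 4.54% of the like-for-like genes). Falls were few among the like-for-like genes too, at 3.61% and 3.41%. Slc7a1 (CAT-1, chr5:148264220-148336848, minus strand), the main importer of arginine and lysine, was at 186, 162 and 175 CPM in WT vehicle libraries and 295, 326 and 254 with PTH, and at 203, 202 and 198 and then 282, 339 and 291 in Y428F cells. It was 1.67-fold higher with PTH in WT (log2 0.74, SE 0.08, adjusted p = 2.06e-06) and 1.51-fold higher in Y428F cells (log2 0.60, SE 0.08, adjusted p = 3.85e-05). Slc38a2 (SNAT2, sodium-coupled import of small neutral amino acids, chr15:96585266-96597894, minus strand) was the most abundant of the genes that rose, at 432, 438 and 441 CPM in WT vehicle libraries and 583, 610 and 566 with PTH. The Y428F libraries were at 515, 515 and 529 CPM and then 693, 808 and 780. The groups did not overlap, with log2 fold changes of 0.42 (SE 0.06, adjusted p = 3.9e-05) and 0.55 (SE 0.06, adjusted p = 2.21e-06).

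Slc7a11 (xCT, chr3:49846975-50398070, minus strand), which takes up cystine in exchange for glutamate, spread more between libraries. It was at 20.7, 12.6 and 15.3 CPM in WT vehicle libraries and 26.4, 25.5 and 19.2 with PTH, where 1 vehicle library overlapped the PTH libraries. In Y428F cells it was at 12.4, 12.7 and 13.3 CPM and then 19.9, 24.0 and 19.1, with no overlap. Its log2 fold change was called in Y428F cells (0.71, SE 0.15, adjusted p = 0.00283), while in WT cells it was 0.55 (SE 0.15, adjusted p = 0.0152), with an adjusted p between 0.0638 and 0.092 when WT vehicle replicate 2 or 3 or WT PTH replicate 1 or 2 was left out. The glutamine carrier Slc1a5 did not pass in either line (log2 -0.10 and -0.13, adjusted p = 0.326 and 0.158), although with library totals its Y428F value was -0.17 (adjusted p = 0.0431). Nor did Slc7a5 (0.17 and 0.02, adjusted p = 0.166 and 0.938), whose WT value was 0.278 without WT PTH replicate 3 (adjusted p = 0.00646) and passed 0.05 with no filter on low counts (adjusted p = 0.0473). Its partner chain Slc3a2 was at -0.17 and -0.18 (adjusted p = 0.0567 and 0.0488), below the size needed for a call. The side of 0.05 on which Slc3a2 fell was not stable, since its Y428F value missed it in 8 of the 12 fits that left out a library (adjusted p up to 0.185), and its WT value passed with library totals (adjusted p = 0.011), with DESeq2 (0.0235), with at least 10 counts in every library (0.026) and without WT vehicle replicate 2 or Y428F PTH replicate 1 (0.0433 and 0.0489).

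Of the sugar carriers, Slc2a1 (GLUT1, chr4:118965908-118996365, plus strand) was at 57.9, 60.6 and 61.6 CPM in WT vehicle libraries and 93.3, 95.7 and 81.3 with PTH, 1.5-fold higher (log2 0.58, SE 0.07, adjusted p = 2.49e-06). In Y428F cells it started at 76.1, 70.2 and 73.1 CPM and was at 93.7, 88.0 and 87.4 with PTH, so that the PTH levels of both lines overlapped while the vehicle levels did not. Its log2 fold change there, 0.30 (SE 0.06, adjusted p = 0.00371), lay just under the size limit. The difference between the responses, -0.29 (SE 0.09), had the smallest unadjusted p of the family and an adjusted p of 0.342. Slc5a3 (SMIT1, which imports the osmolyte myo-inositol) was at 19.9, 19.1 and 20.2 CPM and then 28.8, 26.8 and 24.1 in WT cells, and at 22.5, 24.9 and 26.1 and then 31.3, 32.9 and 33.6 in Y428F cells. It rose in both (log2 0.43 and 0.41, adjusted p = 0.00173 and 0.00204), but it shares exons with Mrps6 on the same strand and its counts were estimated in 8 libraries, so its level is uncertain.

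Phosphate import was represented by Slc20a1 and Slc20a2. Slc20a1 (PiT-1) was at 41.9, 34.6 and 36.4 CPM in WT vehicle libraries and 51.1, 50.1 and 45.0 with PTH, and rose (log2 0.37, SE 0.08, adjusted p = 0.00297). In Y428F cells it was at 37.8, 34.1 and 38.3 CPM and then 45.1, 46.9 and 43.7, with a log2 fold change of 0.30 that passed an adjusted p of 0.05 but not the limit for a call (adjusted p = 0.0142), nor 0.05 without Y428F vehicle replicate 2 or PTH replicate 2 (adjusted p = 0.0946 and 0.0539). Slc20a2 (PiT-2) did not pass in either line (log2 0.17 and 0.02, adjusted p = 0.0704 and 0.926), but its WT value passed 0.05 without WT PTH replicate 3 or Y428F PTH replicate 1 or 2 (adjusted p from 0.0268 to 0.0439) and with DESeq2 (0.0456). The lactate carriers of the monocarboxylate group are Slc16a1 (MCT1) and Slc16a3 (MCT4), and neither was called with PTH. Slc16a1 had log2 fold changes of 0.19 and 0.13 (adjusted p = 0.0199 and 0.133), the first of which missed 0.05 without WT vehicle replicate 2 or 3 or WT PTH replicate 1 or 2 (adjusted p from 0.0516 to 0.0957) and with library totals (0.0778). Slc16a3 was near 1 CPM in every group and had values of -0.29 and -0.89 (adjusted p = 0.696 and 0.123), the first running from -0.749 to -0.093 when a library was left out.

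Of the genes not called in WT cells, 5 rose in Y428F cells, Slc7a11 among them. Slc15a4, a lysosomal carrier of histidine and small peptides, was at 31.7, 26.6 and 28.1 CPM in Y428F vehicle libraries and 35, 36.6 and 39.7 with PTH (log2 0.37, SE 0.08, adjusted p = 0.00293). In WT cells it was at 35.9, 36.9 and 38.4 and then 37.4, 39.1 and 36.9 CPM (log2 0.03, adjusted p = 0.878), and the difference of 0.34 (SE 0.11) had an adjusted p of 0.364. Slc35f5, Slc35e4 and Slc66a2, carriers whose substrates are less settled, rose by log2 fold changes of 0.40, 0.33 and 0.32 in Y428F cells (adjusted p = 0.00057, 0.00059 and 0.0047), beside 0.26, 0.21 and 0.22 in WT cells (adjusted p = 0.015, 0.023 and 0.034).

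**Figure D2:**
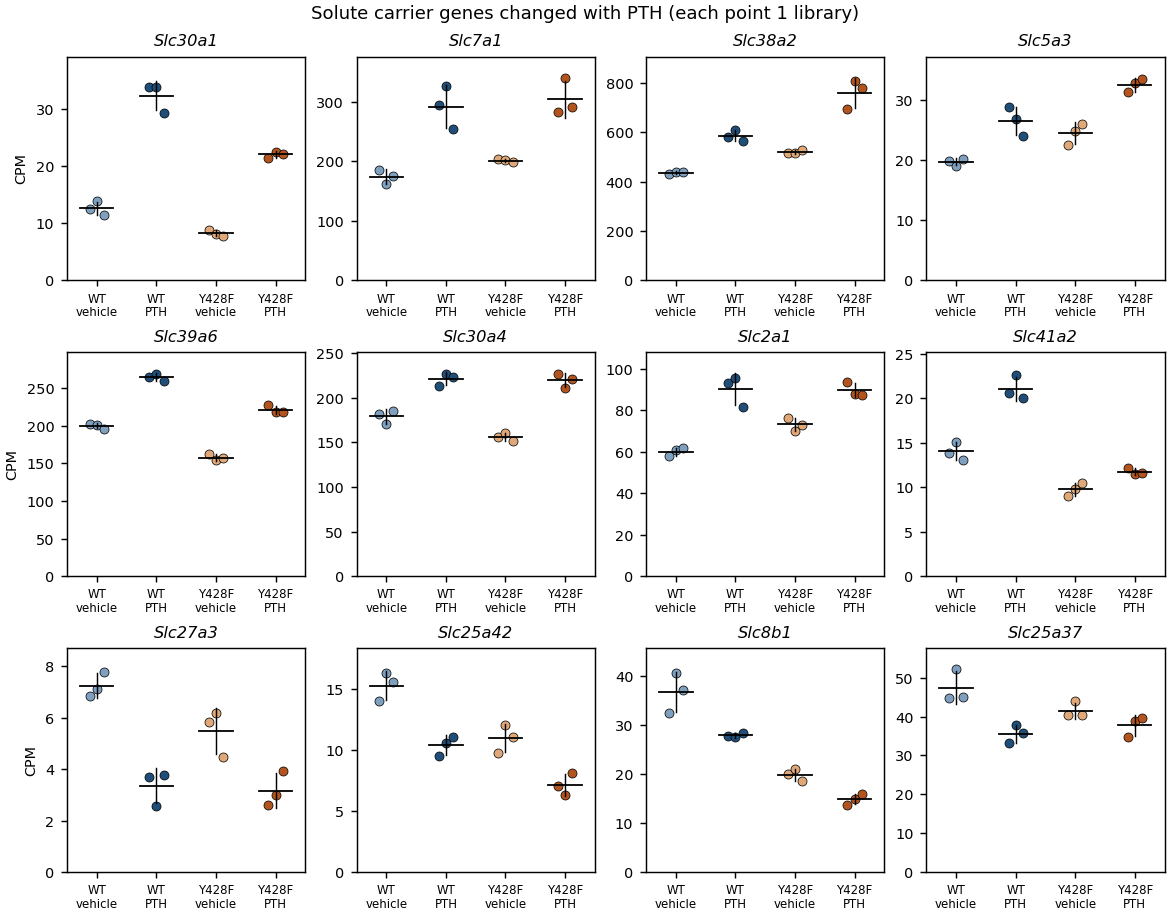
CPM (y axis, from 0) of 12 solute carrier genes called with PTH in WT or Y428F cells; each point is 1 library, the horizontal line is the group mean and the vertical line its SD. The 8 genes in the first 2 rows are higher with PTH, Slc30a1 by the largest fold, and the 4 in the last row are lower.

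The 5 genes that fell with PTH in WT cells were Slc27a3, 3 mitochondrial carriers and Slc8b1, and 3 of the 5 also fell in Y428F cells. Slc27a3 (FATP3, chr3:90291676-90297320, minus strand), a fatty acid transport protein with acyl-CoA synthetase activity, was low throughout, at 6.82, 7.11 and 7.78 CPM in WT vehicle libraries and 3.71, 2.58 and 3.78 with PTH. The Y428F libraries were at 5.81, 6.17 and 4.48 CPM and then 2.61, 2.98 and 3.91. The groups did not overlap, and the log2 fold changes were -1.10 (SE 0.18, adjusted p = 0.000293) and -0.79 (SE 0.19, adjusted p = 0.00714).

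Slc25a42, the carrier that brings coenzyme A into mitochondria, was at 14, 16.3 and 15.6 CPM in WT vehicle libraries and 9.49, 10.6 and 11.1 with PTH, and at 9.8, 12.1 and 11.1 and then 7.1, 6.29 and 8.1 in Y428F cells. It fell in both, by 0.55 (SE 0.11, adjusted p = 0.00228) and by 0.62 (SE 0.12, adjusted p = 0.0016) on the log2 scale, and its exons lie opposite those of the more abundant Tmem161a. Slc8b1 (NCLX, the sodium/calcium exchanger of mitochondria) was at 32.4, 40.7 and 37.2 CPM and then 27.8, 27.5 and 28.5 in WT cells, and at 20.1, 21.0 and 18.6 and then 13.8, 14.9 and 15.9 in Y428F cells. It fell by 0.40 (SE 0.09, adjusted p = 0.00407) and 0.42 (SE 0.10, adjusted p = 0.00537) on the log2 scale.

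Slc25a37 (mitoferrin-1, which imports iron) and Slc25a30, both of the mitochondrial carrier family, were called in WT cells. Slc25a37 was at 44.8, 52.3 and 45.1 CPM and then 33.2, 37.8 and 35.8 there (log2 -0.41, SE 0.08, adjusted p = 0.0012), beside -0.14 in Y428F cells (adjusted p = 0.3). Slc25a30 was at 37.5, 35.9 and 34.7 CPM and then 26.4, 29.0 and 26.2 (log2 -0.41, SE 0.07, adjusted p = 0.000348), beside -0.21 in Y428F cells (adjusted p = 0.03). The differences between the lines were not called (adjusted p = 0.626 and 0.701). Of the 39 mitochondrial carriers, 0 rose in either line, 3 fell in WT and 1 in Y428F cells (7.69% and 2.56%, beside falls of 3.61% and 3.41% among the like-for-like genes). With library totals in place of TMM scaling 4 fell in WT and 2 in Y428F cells. The abundant Slc25a4, Slc25a5, Slc25a3 and Slc25a24 were not called in either line, with log2 fold changes between -0.003 and 0.227.

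In Y428F cells 3 ion carriers fell, Slc8b1, the sodium/proton exchanger Slc9a5 (log2 -0.50, SE 0.11, adjusted p = 0.00365) and the anion exchanger Slc4a3 (log2 -0.39, SE 0.10, adjusted p = 0.00895). In WT cells Slc9a5 was at -0.36 (adjusted p = 0.0499) and Slc4a3 at -0.12 (adjusted p = 0.441). Without Y428F PTH replicate 1, Slc4a3 was at -0.308 with an adjusted p of 0.062. Slc29a3 (ENT3, the nucleoside carrier of lysosomes) and Slc2a8 (GLUT8) were the others that fell in Y428F cells, by 0.44 and 0.37 on the log2 scale (adjusted p = 0.000893 and 0.0067), beside -0.29 and -0.18 in WT cells (adjusted p = 0.022 and 0.14). The sodium-potassium-chloride cotransporter Slc12a2 (NKCC1) was not called (log2 0.26 in WT, adjusted p = 0.0498, and 0.16 in Y428F cells, adjusted p = 0.233), and its value in WT cells missed 0.05 in most fits that left out a library (adjusted p up to 0.166). Slc2a3 and Slc8a1 were under the count limit and were not members.

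Counts of genes that fell rested on few libraries. In WT cells there were 2 without WT vehicle replicate 2 and 3 without WT vehicle replicate 3 or WT PTH replicate 1. In Y428F cells there were 1 without Y428F vehicle replicate 2, 2 without Y428F vehicle replicate 1 or Y428F PTH replicate 1, 3 without Y428F PTH replicate 2 and 4 without WT PTH replicate 1.

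In all, 6 genes rose in both lines (Slc30a1, Slc7a1, Slc38a2, Slc5a3, Slc39a6 and Slc30a4), 3 fell in both (Slc27a3, Slc25a42 and Slc8b1), and 0 moved in opposite directions. Over all genes tested 1.92% rose in both, 1.17% fell in both and 0 moved in opposite directions, and of the like-for-like genes 2.88% and 1.77%, so this pattern was that of responding genes in general. All 14 genes called in WT and all 18 called in Y428F cells had PTH and vehicle libraries that did not overlap, which a call itself favours. Of all 200 members, called or not, this held for 34.0% in WT and 40.5% in Y428F cells, beside 26.4% and 30.8% of all genes tested. The difference in response was called for 0 of the 200 genes, against 22 of the 17691 tested (0.124%), and 0 members passed an adjusted p of 0.05, beside 0.413% of all genes. At an unadjusted p under 0.05 there were 13 solute carrier genes, beside 7.05% of all genes tested and 8.07% of the like-for-like genes, so the family did not stand out, and DESeq2 also called 0. Beside Slc2a1 and Slc15a4, the smallest p belonged to Slc7a7 (y+LAT1, a light chain that exchanges cationic for neutral amino acids), at 0.317 to 0.483 and 0.524 to 0.923 CPM in WT cells and 2.08 to 3.55 and 1.28 to 2.09 CPM in Y428F cells, with a difference of -1.46 (SE 0.50, adjusted p = 0.418). Counts were simulated at these depths over all genes tested, not for the family alone, with the same assumed spread for every gene. The 200 changed genes were drawn from those averaging 2 CPM or more. Of 200 differences in response of 2-fold (among 17371 genes) 83.5% were called, and of 200 of 1.5-fold (among 17370) 14.5%. In that setting differences of the smaller size were mostly not detectable. Genes under 2 CPM, or with a wider spread, were not covered.

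**Figure D3:**
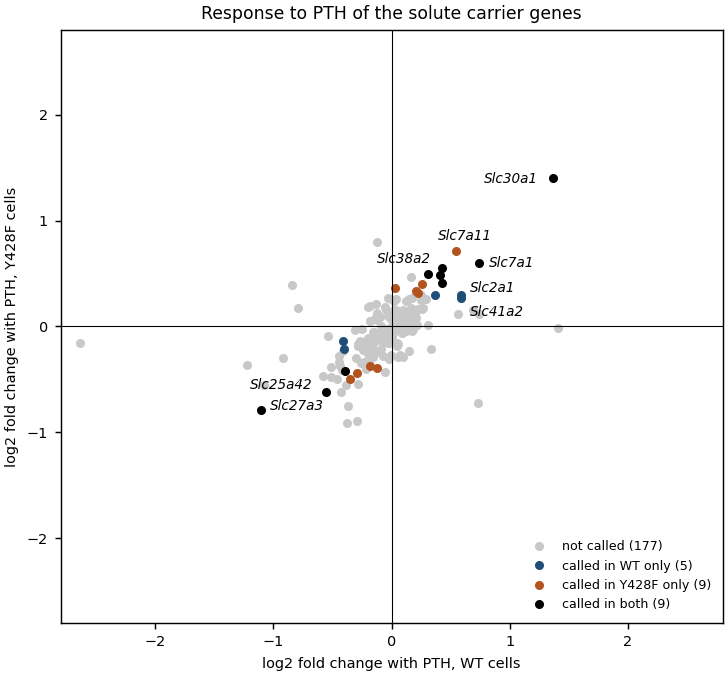
Log2 fold change with PTH in WT cells (x axis) and in Y428F cells (y axis) for the 200 solute carrier genes, coloured by the line in which the gene was called. Slc30a1 stands alone at the upper right, 9 genes were called in both lines, and no called gene lies in an opposite-sign quadrant.

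Sequence upstream of 3 genes that rose is shown because cAMP and metals are known to act through short elements in promoters. Windows were the 250 bases before the start of each gene's canonical transcript (GENCODE vM39, GRCm39), searched on both strands for TGACGTCA (the cAMP response element), TGACG (its core, which every full element also holds), TGCACNC or TGCGCNC (the core of the metal response element) and TGATGNAA (the C/EBP-ATF element of amino acid response genes). The 3 windows below were chosen after the matches were seen, as examples that hold one of the elements, and windows with no match are not shown, among them those of Slc30a4, Slc39a6 and Slc5a3, which rose in both lines. The printed sequences leave out bases annotated as transcribed, and capitals mark every match.
Slc30a1: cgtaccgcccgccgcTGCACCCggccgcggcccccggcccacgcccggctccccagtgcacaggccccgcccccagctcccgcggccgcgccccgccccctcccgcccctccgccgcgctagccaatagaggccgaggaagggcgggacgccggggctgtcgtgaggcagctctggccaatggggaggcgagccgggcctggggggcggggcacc
Slc7a1: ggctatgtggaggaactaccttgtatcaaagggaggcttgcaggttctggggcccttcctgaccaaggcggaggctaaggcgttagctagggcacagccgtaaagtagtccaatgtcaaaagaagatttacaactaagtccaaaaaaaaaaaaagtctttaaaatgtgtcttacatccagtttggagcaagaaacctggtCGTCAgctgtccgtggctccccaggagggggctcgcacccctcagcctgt
Slc7a11: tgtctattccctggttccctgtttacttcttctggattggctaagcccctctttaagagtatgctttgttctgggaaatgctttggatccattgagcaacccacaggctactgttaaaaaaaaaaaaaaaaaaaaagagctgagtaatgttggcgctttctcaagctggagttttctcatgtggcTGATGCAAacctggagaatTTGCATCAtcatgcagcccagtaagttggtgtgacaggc
These lie at chr1:191638593-191638807 (plus strand), chr5:148336849-148337098 (minus) and chr3:50398071-50398313 (minus). Slc30a1 held 1 metal response core starting 235 bases before the transcript, Slc7a1 held 1 TGACG on the opposite strand 50 bases before, and Slc7a11 held 2 C/EBP-ATF matches facing each other 65 and 46 bases before. Of the 14 genes that rose in either line, 0 held the full cAMP element, 7 held TGACG, 3 a metal response core and 1 the C/EBP-ATF element. Over 21770 promoters of that length the shares were 1.69%, 18%, 21.9% and 3.39%, and over the 200 solute carrier genes 1.0%, 23.5%, 25.5% and 3.0%. A match is a run of letters and was not tested as a binding site.

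The cell lines differed in far more solute carrier genes than PTH changed. With vehicle, 35 genes were higher and 53 lower in Y428F than in WT cells (44.0%), beside 15.1% and 15.9% of all genes tested (31.0%) and 20.7% and 22.6% of the like-for-like genes (43.2%). With PTH, 40 were higher and 57 lower (48.5%), beside 15.2% and 16.4% of all genes tested (31.6%) and 44.0% of the like-for-like genes. The family's share thus lay near that of expressed genes in general. With library totals in place of TMM scaling the split was 47 higher and 49 lower with vehicle, and 49 and 49 with PTH. The comparisons share no library, and 30 genes were higher and 47 lower in both, with 0 in opposite directions, beside 12.5%, 13.4% and 0.017% of all genes tested and 17.4%, 19.5% and 0.0259% of the like-for-like genes. All called genes had libraries that did not overlap between the lines, as had 53.8% (vehicle) and 51.9% (PTH) of all genes tested. An adjusted p under 0.05 alone was passed by 129 members with vehicle and 131 with PTH, beside 45.1% and 45.7% of all genes tested. Of the 11577 like-for-like genes, 7034 passed with vehicle and 7113 with PTH. Had both lines held the counts of the lower one, 15 members would not have met the limit of 120, so the rule itself favoured a difference in these. Of the 15, 9 were called higher and 3 lower with vehicle, and 10 and 2 with PTH. Among the other 185, 26 were higher and 50 lower with vehicle, and with PTH 30 and 55.

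Several genes were nearly absent in one line. Slc47a1, Slc6a13, Slc26a7, Slc9b1, Slc7a7 and Slc5a11, which are described here and below, are among the 15 that met the limit through one line, so their distance between the lines is a description and no support for a difference. Slc47a1 (MATE1, which extrudes organic cations, chr11:61234226-61269171, minus strand) had 0 or 1 count in each WT library and was at 12.1, 11.7 and 11.8 CPM in Y428F vehicle libraries and 13, 10.2 and 12.1 with PTH. With 1 count in all 3 WT vehicle libraries and 669 in the Y428F ones, the ratio of levels was 655 (95% interval from counting error only, 117 to 25900), and with PTH it was 198 (67.4 to 962). In the opposite direction Slc22a17, known as a receptor for lipocalin-2, was at 10.2, 10.1 and 12.2 CPM in WT vehicle libraries and 0.493, 0.506 and 0.491 in Y428F ones, 21.5-fold lower (log2 -4.43, SE 0.21, adjusted p = 7.97e-13). With PTH it was at 9.49, 10.3 and 9.96 CPM against 0.721, 0.618 and 1.27. Slc6a13 (GAT2, a GABA carrier) and the anion exchanger Slc26a7, singled out after their values were seen, were at 2.24 to 2.38 and 1.72 to 1.8 CPM in Y428F vehicle libraries and had 1 and 2 counts in all WT vehicle libraries, ratios of 128 (22.6 to 5100) and 48.4 (13.1 to 406). With PTH, Slc26a7 had 0 counts in WT cells and was at least 8.83-fold higher in Y428F cells, taking 3 counts per library as the limit. The ratios above used the few counts themselves, without that limit, so the bound cannot be compared with them.

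Of 39 mitochondrial carriers, 7 were higher and 8 lower with vehicle, 17.9% and 20.5%, near the 20.7% and 22.6% of the like-for-like genes. With PTH 10 were higher and 6 lower, 25.6% and 15.4%, beside 20.6% and 23.4%, and with library totals in place of TMM scaling the counts were 10 and 8, and 12 and 6. Slc25a23 (chr17:57350705-57366905, minus strand), a calcium-regulated ATP-Mg/phosphate carrier, was at 114, 133 and 134 CPM in WT vehicle libraries and 22.8, 22.4 and 22.9 in Y428F ones, 5.6-fold lower (log2 -2.48, SE 0.08, adjusted p = 1.46e-15), and at 118, 127 and 118 against 18.2, 22.5 and 22 CPM with PTH. Its relative Slc25a24 did not differ in the test (log2 0.02 with vehicle, adjusted p = 0.855). The dicarboxylate carrier Slc25a10 was at 32.9, 35.7 and 38.2 CPM in WT and 87.7, 86.6 and 82.8 in Y428F vehicle libraries (log2 1.27, SE 0.06, adjusted p = 1.48e-12). Slc25a30, which fell with PTH in WT cells, was higher in Y428F cells by 0.87 (adjusted p = 6.36e-10), and Slc25a43, called with PTH alone, by 0.89 with vehicle (adjusted p = 0.0125) and 1.01 with PTH (adjusted p = 0.00772). Of the abundant carriers, Slc25a5 and Slc25a3 were higher by 0.79 and 0.45 on the log2 scale (adjusted p = 2.73e-08 and 7.15e-07), while Slc25a4 did not differ in the test (log2 0.004, SE 0.07, adjusted p = 0.98).

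Of 13 sugar carriers, 1 was higher and 6 were lower under each treatment, beside 20.7% and 22.6% of the like-for-like genes with vehicle and 20.6% and 23.4% with PTH. Their median log2 fold change with vehicle was -0.369, beside 0.012 over all genes tested, and the class was not tested as such. Slc37a2, a sugar-phosphate exchanger, was at 19.6, 28.4 and 29.5 CPM in WT and 8.49, 7.33 and 9.77 in Y428F vehicle libraries (log2 -1.60, SE 0.14, adjusted p = 8.81e-09). Slc2a6 (GLUT6) was lower by 1.45 on the log2 scale (adjusted p = 6.72e-09), and Slc5a11, Slc2a8, Slc37a3 and Slc2a10 had log2 fold changes of -1.67, -0.92, -0.66 and -0.63. Slc2a1 was a little higher with vehicle (log2 0.28, adjusted p = 0.00113, under the size limit) and did not differ in the test with PTH (log2 -0.01, adjusted p = 0.958). Slc16a1, which carries lactate, was at 90.2, 88.0 and 89.1 CPM in WT and 149, 146 and 158 in Y428F vehicle libraries (log2 0.76, SE 0.05, adjusted p = 2.59e-10), while Slc16a3 was not called (log2 0.29, adjusted p = 0.533).

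Of 25 amino acid carriers, 5 were higher and 4 lower with vehicle, beside 20.7% and 22.6% of the like-for-like genes, and 6 and 4 with PTH, beside 20.6% and 23.4%. The glutamate carrier Slc1a3 (GLAST) was at 0.688, 0.626 and 0.751 CPM in WT and 4.82, 3.39 and 4.15 in Y428F vehicle libraries (log2 2.57, SE 0.26, adjusted p = 6.75e-08). Slc38a4 (SNAT4) was at 3.7, 3.13 and 3.22 against 9.69, 8.19 and 8.9 CPM (log2 1.41, SE 0.15, adjusted p = 1.12e-07). Slc7a7, which met the count limit through one line, was higher by 2.75 on the log2 scale, given as a description only. The cationic carriers split: Slc7a2 (CAT-2) was at 103, 131 and 120 CPM in WT and 42.6, 39.7 and 38.9 in Y428F vehicle libraries (log2 -1.55, SE 0.08, adjusted p = 1.23e-12), whereas Slc7a1 was 0.21 higher on the log2 scale (adjusted p = 0.0453), short of a call. Slc7a5 was higher by 0.41 with vehicle (adjusted p = 0.0002). Slc3a2, Slc38a2 and Slc1a5 had log2 fold changes of 0.24, 0.25 and 0.08 (adjusted p = 0.00174, 0.0014 and 0.249, the last 0.0412 with library totals), and Slc7a11 of -0.34 (adjusted p = 0.0723). Leaving out a library moved the Slc7a11 value between -0.499 and -0.129, and it passed 0.05 without WT vehicle replicate 2 or WT PTH replicate 3 (adjusted p = 0.00813 and 0.0468) and with no filter on low counts (adjusted p = 0.00641). The creatine carrier Slc6a8 was at 264, 314 and 312 CPM against 212, 195 and 192 and was called lower (log2 -0.57, adjusted p = 9.37e-07).

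Of 24 metal carriers, 2 were higher and 7 lower with vehicle, and 3 and 9 with PTH, but with library totals in place of TMM scaling the counts were 5 and 5, and 5 and 6. As shares under TMM scaling, 8.33% and 29.2% of the class in vehicle and 12.5% and 37.5% in PTH libraries stood beside 20.7% and 22.6%, and 20.6% and 23.4%, of the like-for-like genes. Slc30a1 was lower in Y428F cells both with vehicle (log2 -0.60, SE 0.10, adjusted p = 6.12e-05) and with PTH (log2 -0.56, SE 0.09, adjusted p = 2.38e-05), and so was Slc41a2 (log2 -0.52 and -0.84, adjusted p = 0.000172 and 2.69e-07). The magnesium carriers Slc41a1 and Slc41a3 had log2 fold changes of -0.46 and -0.45 with vehicle, so that all 3 Slc41 genes were called lower. Slc39a6 was lower by 0.34 with vehicle (adjusted p = 9.39e-06), Slc39a7 by 0.34 with PTH (adjusted p = 2.43e-05), and Slc39a14 was higher by 0.36 with PTH (adjusted p = 7.3e-05). Slc39a8 (ZIP8) and Slc39a10 (ZIP10) were the 2 called higher with vehicle, by 0.70 and 0.33. Slc40a1 had log2 fold changes of 0.28 and 0.35 (adjusted p = 0.0739 and 0.0231). The first passed 0.05 with library totals (adjusted p = 0.0321) and with at least 10 counts in every library (0.0452). The second missed 0.05 without WT PTH replicate 2 or 3 or Y428F PTH replicate 2 or 3 (adjusted p from 0.0691 to 0.0941) and with DESeq2 (0.0509).

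Of 26 carriers of inorganic ions, 7 were higher and 8 lower with vehicle (26.9% and 30.8%, beside 20.7% and 22.6% of the like-for-like genes), and 7 and 11 with PTH (26.9% and 42.3%, beside 20.6% and 23.4%). With library totals in place of TMM scaling the counts were 8 and 8, and 8 and 9. Slc9a5 was at 23.3, 23.7 and 21.5 CPM in WT and 41.6, 48.4 and 38.8 in Y428F vehicle libraries (log2 0.91, SE 0.11, adjusted p = 6.82e-07). Slc9b1, a sodium/proton antiporter, was at 0 to 0.227 against 2.43 to 3.17 CPM. The bicarbonate cotransporter Slc4a4 (NBCe1) was at 17.5, 16.2 and 18.7 against 4.76, 6.02 and 4.97 CPM (log2 -1.73, SE 0.13, adjusted p = 5.34e-10), and Slc8b1 and Slc4a3 were lower by 0.88 and 0.65. Slc12a2 was higher by 0.35 (adjusted p = 0.00177). Among phosphate carriers, Slc17a1 (NPT1) was at 6.45, 5.4 and 4.83 CPM in WT and 0.821, 0.556 and 0.601 in Y428F vehicle libraries (log2 -3.07, SE 0.25, adjusted p = 2.07e-09). The abundant Slc20a1 and Slc20a2 were not called (log2 -0.04 and 0.25, adjusted p = 0.744 and 0.00194, the second under the size limit).

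**Figure D4:**
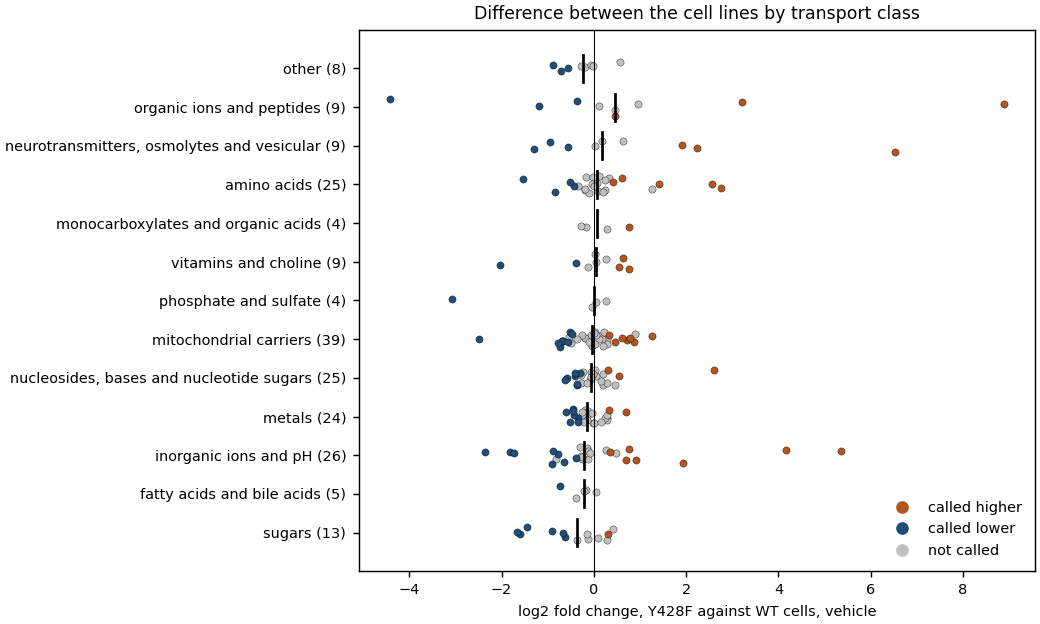
Log2 fold change of Y428F against WT cells with vehicle (x axis) for the 200 solute carrier genes in rows by what they carry, with the number of genes in brackets; each point is 1 gene and the vertical line is the median of its row. Sugar carriers have the lowest median, and the highest and lowest points of all, Slc47a1 and Slc22a17, are both in the row of organic ions and peptides, where genes were placed by symbol.

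**Figure D5:**
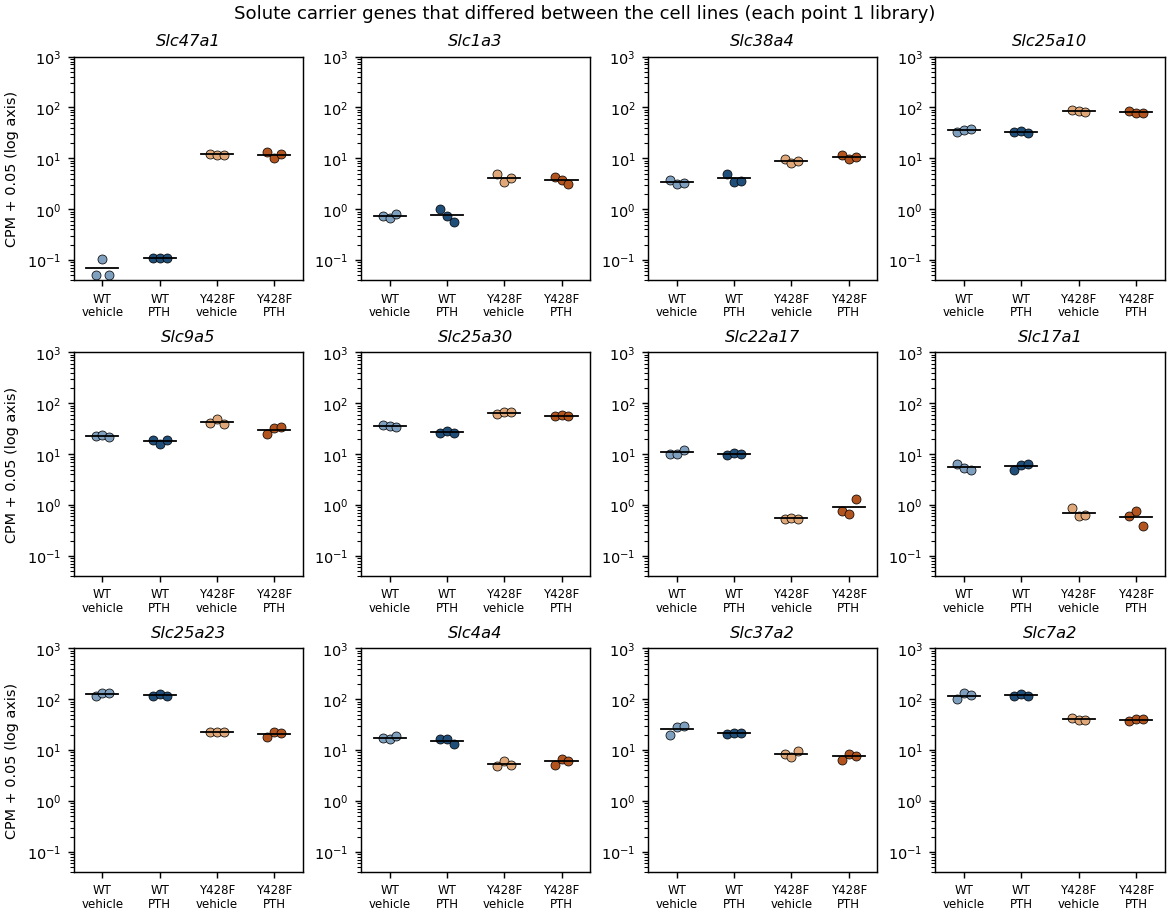
CPM plus 0.05 on a log axis for 12 solute carrier genes that differed between the lines; each point is 1 library and the line is the group mean. In every panel the 6 WT libraries and the 6 Y428F libraries form separate sets.

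A gene's neighbours also differed by line: the median log2 fold change with vehicle over all tested genes of a chromosome ran from -0.211 on chromosome 9 to 0.297 on chromosome 10. After each chromosome's median was taken off, 34 solute carrier genes were higher and 50 lower with vehicle and 31 and 53 with PTH. This step changed the log2 fold change alone, and the adjusted p was not computed again. The same step gave 13.1% higher and 14.8% lower of all genes tested in vehicle and 13.1% and 15.3% in PTH libraries, and of the like-for-like genes 17.5% and 20.9%, and 17.5% and 21.8%. The part of these chromosome-wide shifts in the differences was not tested.

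Genes that work with solute carriers were taken from a list of 42 partners, pumps and regulators, of which 37 were tested. In WT cells 5 rose and 1 fell with PTH, beside 3.63% and 2.44% of all genes tested, and in Y428F cells 4 rose and 1 fell, beside 3.02% and 2.3%. Of protein-coding genes with at least 120 counts, a limit not set for this list, 5.43% and 3.61% did so in WT cells. In Y428F cells it was 4.54% and 3.41%. Sgk1, a kinase that raises the activity of many ion and nutrient carriers, was at 19 ± 1.2 CPM (SD, n = 3) with vehicle and 68.2 ± 9.9 with PTH in WT cells, and at 15.3 ± 1.9 and 44.6 ± 2.5 in Y428F cells (log2 1.84 and 1.55, adjusted p = 1e-10 and 5.2e-09). Oxsr1, a kinase of cation-chloride cotransporters, rose by 0.52 and 0.32, and Flvcr1, an exporter of heme and choline carrier, by 0.36 and 0.51. Hk2 (hexokinase) and Tfrc (the transferrin receptor) rose in WT cells (log2 0.56 and 0.34, adjusted p = 0.00083 and 0.0091), beside 0.26 and 0.23 in Y428F cells (adjusted p = 0.12 and 0.053).

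The metallothionein Mt1, which binds zinc and copper, was at 194 ± 10 and 233 ± 6.8 CPM in WT cells and 125 ± 9.3 and 171 ± 7.5 in Y428F cells. It was called with PTH in Y428F cells (log2 0.45, adjusted p = 4.4e-05), and in WT cells it was 0.26 higher (adjusted p = 0.0056, under the size limit). The less abundant Mt2 was not called with PTH in either line (log2 0.67 in WT and 0.60 in Y428F cells, adjusted p = 0.0154 and 0.203). Between the lines Mt1 and Mt2 were lower in Y428F cells with vehicle (log2 -0.63 and -2.66), as was Slc30a1, and the factor Mtf1 was not called (log2 -0.12, adjusted p = 0.42). Txnip, an arrestin-like protein that draws Slc2a1 from the cell surface, was at 229 ± 18.7 and 159 ± 11.9 CPM in WT and 70.1 ± 1.01 and 34.7 ± 2.76 in Y428F cells. It fell with PTH in both lines (log2 -0.52 and -1.01, adjusted p = 2e-05 and 2.1e-08) and was lower in Y428F cells with vehicle (log2 -1.71, adjusted p = 7.4e-14). Ldha, which makes lactate, was higher in Y428F cells by 1.24 with vehicle (adjusted p = 1.2e-13), and Bsg, the chaperone of Slc16a1, by 0.29 (adjusted p = 9.4e-05, under the size limit). The pyruvate carrier genes Mpc1 and Mpc2 were not called either (log2 -0.01 and 0.24). Over the whole list, 7 were higher and 8 lower in Y428F cells with vehicle, beside 15.1% and 15.9% of all genes tested, and 9 and 9 with PTH, beside 15.2% and 16.4%.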

How the data were processed

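RNA-Seq was performed on W-20 cells in 4 groups of 3 libraries. According to the deposited labels and the study's methods, the authors aligned reads with STAR 2.7.10b to GRCm39 and obtained expected counts per gene with RSEM (GENCODE vM31 basic annotation); whether strand was used is not given in the sources used here. Rounding turned the deposited expected counts into integers, and all 12 columns were matched to samples by title. Gene identifiers were matched without version to GENCODE vM39 (56236 of 56980).

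The 17691 genes that reached 10 counts over the libraries were tested with edgeR 4.0.16 (glmQLFit, glmQLFTest, TMM scaling) in R 4.3.3, in 1 fit over 12 libraries with group as the only term, with Benjamini-Hochberg adjustment over all genes tested. Calls needed an adjusted p below 0.01 together with a log2 change larger than 0.3 in size, and single genes were judged at 0.05. The SE of a log2 fold change was its size divided by the square root of the F statistic of the edgeR test. DESeq2 1.42.0 was an alternative. The procedure was tested on simulated counts. Levels are CPM; between genes they were compared per kb of exon union. Ratios with 1 to 3 counts in a group have exact intervals that cover counting error only.

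The members, the transport classes and the lists of partners and markers were chosen with earlier results of these data known, so no list was tested. Named genes were, per comparison, the 6 largest rises and 6 largest falls among called members averaging 2 CPM or more whose groups did not overlap (with fewer than 3, also the 3 smallest p), a fixed list of known carriers and the 10 highest per kb; other genes were named after their values were seen. Replicates of each group differed by more than sampling noise (chi-square per degree of freedom 2.94 to 15.2). Upstream sequence was read from GRCm39. Some items of the fixed lists are not reported here.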

Additional observations from a re-analysis of the deposited data

Results flagged for a closer look

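Among solute carrier genes and their partners, the difference in response to PTH between the lines passed an adjusted p of 0.05 for Txnip, the regulator of glucose carriers, but not the 0.01 needed for a call. Its log2 fold change in Y428F cells minus that in WT cells was -0.494 (SE 0.10, adjusted p = 0.0299, edgeR's interaction term over all genes tested), since it fell by 0.52 in WT and by 1.01 in Y428F cells, in all 3 PTH libraries of each line against all 3 vehicle libraries. When each library was left out in turn the difference stayed between -0.553 and -0.43. Its adjusted p ran from 0.0231 to 0.11 and was above 0.05 without WT vehicle replicate 3, WT PTH replicate 1 or 3, any Y428F vehicle library, or Y428F PTH replicate 2 or 3. DESeq2 gave 0.00193. Txnip was also lower in Y428F cells with vehicle, at 70.1 against 229 CPM.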

How the results depend on the processing

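The counts of called solute carrier genes depended on the threshold. At an adjusted p under 0.05 with no size limit, PTH raised 18 and lowered 15 in WT and 19 and 14 in Y428F cells, and 56 were higher and 73 lower in Y428F cells with vehicle; at 0.0001 these counts were 5 and 0, 5 and 0, and 22 and 40. The genes that fell in WT cells numbered 8 with library totals only and 8 with no filter on low counts. The 6 WT libraries fitted alone gave 8 higher and 4 lower. Leaving out each library in turn gave 7 to 11 higher and 2 to 6 lower in WT cells, 8 to 12 and 1 to 7 in Y428F cells, 31 to 35 and 52 to 55 between the lines with vehicle, 34 to 42 and 53 to 58 with PTH, and 0 for the difference in response. Same-numbered libraries did not deviate together (mean correlation 0.00224 over 18 pairs, beside -0.000973 over 36 other pairs), so the numbers do not pair them; with a replicate block the counts were 10 and 6, 12 and 6, 37 and 53, 41 and 57, and 0. With longest transcripts as length, 9 of the 10 highest genes remained. Of 692 values of single named genes under other settings, 674 stayed on the same side of 0.05, 13 moved past it and 5 no longer passed it. Of 1248 that left out a library, 1203, 10 and 35 did. Direction was not counted where neither fit passed 0.05, and some values near 0 changed sign. The WT response of Slc40a1, for example, ran from -0.07 to 0.109 when a library was left out. No called value of a named gene changed sign under these alternatives. Requiring at least 10 counts in every library removed 23 members. At these library totals, genes near 1 CPM, such as Slc16a3, had a wide error.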
